A study of Homo sapiens with 39 samples.

Results

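The gene expression of 1 cell line that produces isoform 8 of hepatocyte nuclear factor 4 alpha (HNF4A) was compared with that of its parental cells. The comparison rests on 6 of the 39 RNA-seq libraries of the series, the 3 libraries of the isoform 8 line and the 3 of the parental cells, which the labels call an empty control. The cells are HCT116, an established human colorectal cancer line. The parental cells are a Flp-In T-REx host with no HNF4A construct. The isoform 8 line is that host with HNF4A isoform 8 fused to GFP under doxycycline control, and another 11 lines carry the other isoforms in the same way, 1 line per isoform. Doxycycline was given to both groups at 2.5 µg/ml, with RNA taken after 48 h. Culture before induction differed: blasticidin S and zeocin were used for the parental cells, and blasticidin S and hygromycin B for the line, all without selection once doxycycline was added. No group produced GFP alone, so GFP, the earlier antibiotics and the derivation of a line cannot be told apart from the isoform. The HNF4A level of the other 11 lines was not examined. In contrasts between lines that level cannot be told apart from the isoform either. The labels number the libraries of a group as replicates but do not say that they came from separate cultures, so p-values measure the spread between libraries, which may be technical.

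HNF4A is a nuclear receptor that binds DNA as a homodimer and drives genes of lipid, bile acid, glucose and drug metabolism in liver and of absorptive cell structure in gut. Its gene has a pair of promoters and several splice forms. In the standard nomenclature isoform 8 starts from the P2 promoter, so it lacks the N-terminal activation function of the P1 forms, and it carries a short insertion near the C-terminus that isoforms 2, 5 and 11 share. Isoform 7 is the P2 form without that insertion, isoform 2 is the P1 form with it, and isoform 11 has the insertion with another N-terminus. P2 forms are known from fetal liver, stomach, pancreas and colon. The comparison asks which genes change when this P2 isoform is produced in colorectal cancer cells.

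HNF4A mRNA was read first, because it checks the labels. The row for isoform 8 was at 0.0131, 0.000479 and 0.0027 TPM (a transcript level scaled for transcript length and library total) in the parental libraries. It was at 736.1, 700.1 and 761 TPM in the libraries of the line. Summed over the 12 isoform rows, HNF4A was at 31.5 TPM ± 0.589 (SD, n = 3) in parental libraries, while the line had 733.8 TPM ± 31.2 (SD, n = 3), 23.3 times as high. The groups did not overlap, and the exact permutation test gave p = 0.1 (two-sided), the smallest that 3 against 3 libraries can give. The isoform 8 row made up 99.82% of the sum in the line. In the parental cells most of the sum lay in the row for isoform 12, at 27.9 TPM ± 0.692, which was at 2.4e-05 TPM in the line. The isoform sequences are nearly identical, so reads can be assigned to one row or another, and the loss of the isoform 12 row is not read as a loss of its transcript.

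The 6 libraries had between 28052 and 30553 rows above 0 TPM. Their correlation across rows on the log2(TPM + 1) scale was 0.9921 to 0.9932 within the parental cells, 0.9903 to 0.9919 within the line, and 0.98 to 0.9829 between the groups. The share of TPM in the 13 mitochondrial mRNA rows was 9.45%, 7.57% and 8.62% in the parental libraries and 3.42%, 8.51% and 4.34% in the line, so that replicate 2 of the line stood apart from the other two. Its part in the results was not tested beyond leaving it out. Without that library 141 genes were called higher and 97 lower, against 140 and 71 with it (the call is defined below). Of 9 epithelial markers, 6 reached 1 TPM on average in the parental cells and 8 in the line, among them EPCAM at 501 to 521 TPM and 508 to 570 TPM. Their summed level was 3061 to 3188 TPM in the parental libraries and 4099 to 4472 TPM in the line. The 5 leukocyte markers summed to 4.55 to 6.07 TPM in the parental libraries and 16.7 to 17.3 TPM in the line, nearly all of it CD68 (3.1 to 4.44 and 15.4 to 15.9 TPM), while PTPRC, found on all leukocytes, stayed at or below 0.102 TPM. The 7 fibroblast and endothelial markers summed to 14.9 to 17.3 TPM and 12.3 to 15.6 TPM. The T cell marker CD3E and the fibroblast marker DCN were listed at 0 in all 6 libraries. The 5 hepatocyte markers summed to between 0.788 and 1.41 TPM in the parental libraries and between 1.01 and 1.73 TPM in the line, and none reached 1 TPM on average. In RNA from whole cultures, more cells with a transcript and more transcript per cell cannot be told apart.

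The isoform 8 line differed from the parental cells in 211 genes, of which 140 rose and 71 fell. A gene was called when limma's test on log2(TPM + 1), fitted over all 39 libraries, gave a Benjamini-Hochberg adjusted p under 0.05 and an absolute log2 difference of at least 1. The calls were 0.933% of the 15002 tested rows for increases and 0.473% for decreases, 1.41% together. The scale adds 1 TPM to each value, so the differences of genes near 0 TPM are understated. The balance of the calls depends on it: with 0.1 TPM added instead, 201 were called higher and 164 lower. With 1 TPM added the increases were larger than the decreases. The median size was 1.38 for called increases and 1.25 for called decreases, and 27 genes rose by at least 2 while 7 fell by at least 2. The median log2 difference over all tested rows was -0.00963. With no minimum difference, 2528 rows were higher and 2625 lower at an adjusted p under 0.05, 16.9% and 17.5% of those tested. The 3 values of each group did not overlap in 48.4% of all tested rows. Of the 211 calls, 155 were protein-coding genes and 20 were long noncoding RNAs. The calls are not all separate genes, because 10 of these rows repeated the values of another row. They were 5 tRNA, 4 small nuclear RNA and 1 small nucleolar RNA rows. When each of the 6 libraries was left out in turn, 154 of the 211 kept their call every time, 104 higher and 50 lower. Among these 154 were 132 of the 155 protein-coding genes, and none of the 9 tRNA, 8 small nucleolar RNA and 5 small nuclear RNA rows.

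**Figure D1:**
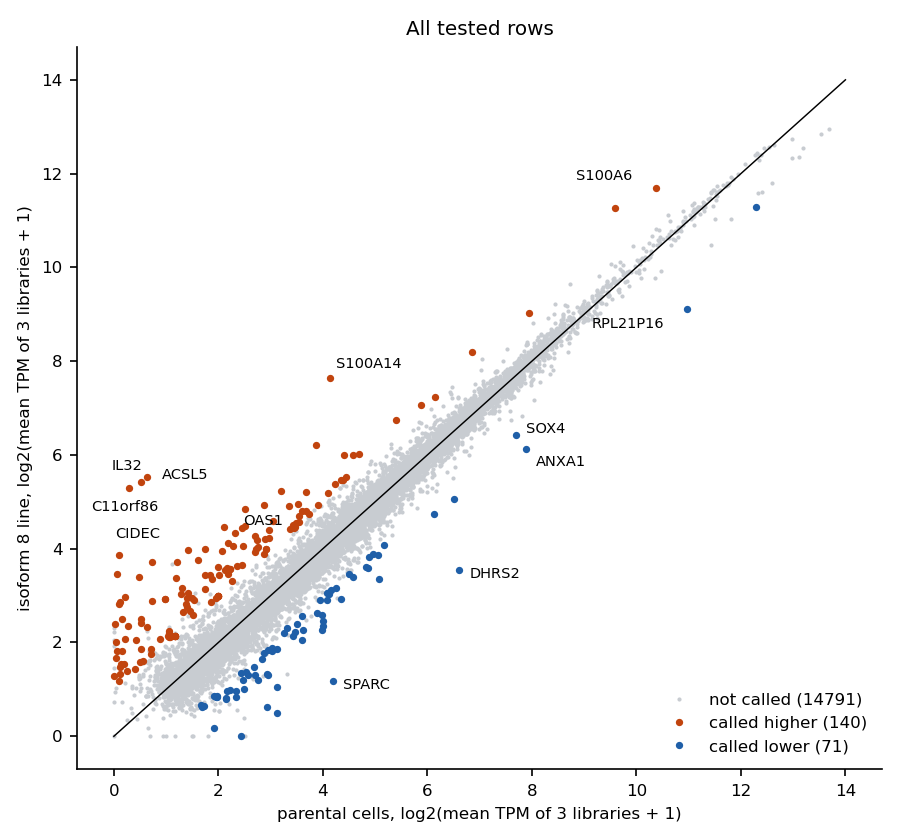
Mean level of each tested row in the isoform 8 line (vertical axis) against the parental cells (horizontal axis), both as log2(mean TPM of 3 libraries + 1). Points are rows, red where called higher (140), blue where called lower (71) and grey where not called, and the line marks equal levels. The largest increases start near 0 in the parental cells, while S100A14 and S100A6 rise from a measurable level.

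HNF4A recognises a direct repeat built on the core CAAAG. Promoter windows of called genes (RefSeq, GRCh38.p14, 250 bases before to 50 after the start) were searched on both strands for the 9-base words CAAAGTCCA, CAAAGGTCA and CAAAGTTCA, which stand for common forms of part of its element. Windows existed for 92 of the 140 genes called higher, and 8 of the 92 (8.7%) held a word. The share was 1.08% of all 35116 windows, 0.709% of the 10432 windows of tested genes, and 2.44% (1 of 41) for genes called lower. A match is a description of letters, not a binding site. The 8 genes were APOBEC1, VTN, PIPOX, CD68, CYTOR, SELENOP, MISP and CLRN3, and the gene called lower was STRA6. The stretches of 4 of them are shown because their genes span the range of responses, from an editing enzyme near 0 in parental cells to a retinol receptor that fell. The word is in capitals, each stretch reads 5′ to 3′ on the strand of its gene, and TGACCTTTG, TGAACTTTG and TGGACTTTG are the same words read on the other strand.
APOBEC1 (chr12:7665909-7665981, minus strand): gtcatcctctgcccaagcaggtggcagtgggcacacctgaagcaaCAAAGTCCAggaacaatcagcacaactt
SELENOP (chr5:42811913-42812011, minus strand): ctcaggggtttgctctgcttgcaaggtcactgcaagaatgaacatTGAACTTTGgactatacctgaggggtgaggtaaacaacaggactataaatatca
MISP (chr19:750955-751053, plus strand): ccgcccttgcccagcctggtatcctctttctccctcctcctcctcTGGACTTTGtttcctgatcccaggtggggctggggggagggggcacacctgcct
STRA6 (chr15:74212260-74212326, minus strand): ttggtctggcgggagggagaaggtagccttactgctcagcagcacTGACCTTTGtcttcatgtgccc

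The word in APOBEC1 starts 28 bases before the start site, that in SELENOP 74, that in MISP 112 and that in STRA6 22. SELENOP, the plasma selenium carrier made by the liver, was at 5.29, 5.48 and 6.17 TPM in parental libraries and at 17.6, 15.4 and 18.8 TPM in the line, a log2 difference of 1.46 ± 0.20 (SE). STRA6, the cell-surface receptor for retinol-binding protein, was at 3.31, 3.86 and 3.05 TPM in parental libraries and at 0.845, 0.738 and 0.674 TPM in the line, a log2 difference of -1.33 ± 0.12. For both genes the groups did not overlap, as in 48.4% of all tested rows.

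The largest increase was in C11orf86, an open reading frame on chromosome 11 (66975277 to 66977004, GRCh38). It was at 0.3, 0.139 and 0.213 TPM in parental libraries and at 37.5, 38.2 and 38.6 TPM in the line. The log2 difference was 5.01 ± 0.14 (SE), with an adjusted p of 1.22e-21. IL32, a cytokine gene (chromosome 16, 3065297 to 3082192), went from 0.446, 0.524 and 0.304 TPM to 42.6, 40.1 and 42.2 TPM, a difference of 4.91 ± 0.15. ACSL5, a long-chain acyl-CoA synthetase of mitochondria and endoplasmic reticulum (chromosome 10, 112374018 to 112428380), went from 0.526, 0.64 and 0.485 TPM to 42.7, 44.9 and 47.2 TPM, a difference of 4.89 ± 0.11. All 3 genes were below 1 TPM in every parental library, and their lowest value in the line was 37.5 TPM, so the groups were far apart.

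Other genes rose from near absence to a modest level. CIDEC, which coats and enlarges lipid droplets, was at 0.0344, 0.125 and 0.0643 TPM in parental libraries and at 14.1, 12.3 and 14.5 TPM in the line (log2 difference 3.77 ± 0.13). APOBEC1, the cytidine deaminase that edits apolipoprotein B mRNA in the intestine, was listed at 0 in 2 of the 3 parental libraries and at 0.121 TPM in replicate 2. It was at 9.18, 10.7 and 9.98 TPM in the line, a log2 difference of 3.40 ± 0.19. HPD, a tyrosine-breakdown enzyme of liver, went from 0.767, 0.612 and 0.605 TPM to 11.8, 11.95 and 12.7 TPM (2.98 ± 0.11). HKDC1, a hexokinase family member, went from 0.0927, 0.0816 and 0.0577 TPM to 6.17, 6.09 and 6.04 TPM (2.72 ± 0.13). AWAT1, a wax ester synthase, was listed at 0 in 2 parental libraries and at 0.0567 TPM in the third, and was at 4.76, 3.62 and 4.29 TPM in the line (2.35 ± 0.11). The other members of the 15 largest increases were S100A14, ANPEP, CYP11A1, MYO15B, VIPR1, the pseudogene AQP7P3 and the noncoding RNA LOC389602, with log2 differences between 2.35 and 3.50. AQP7P3 has close relatives in the genome, so its level is uncertain. For none of the 30 genes with the largest increases and decreases did the parental libraries and those of the line overlap. Their choice by size and stable calls makes this likely in advance, and 48.4% of all tested rows did not overlap either.

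**Figure D2:**
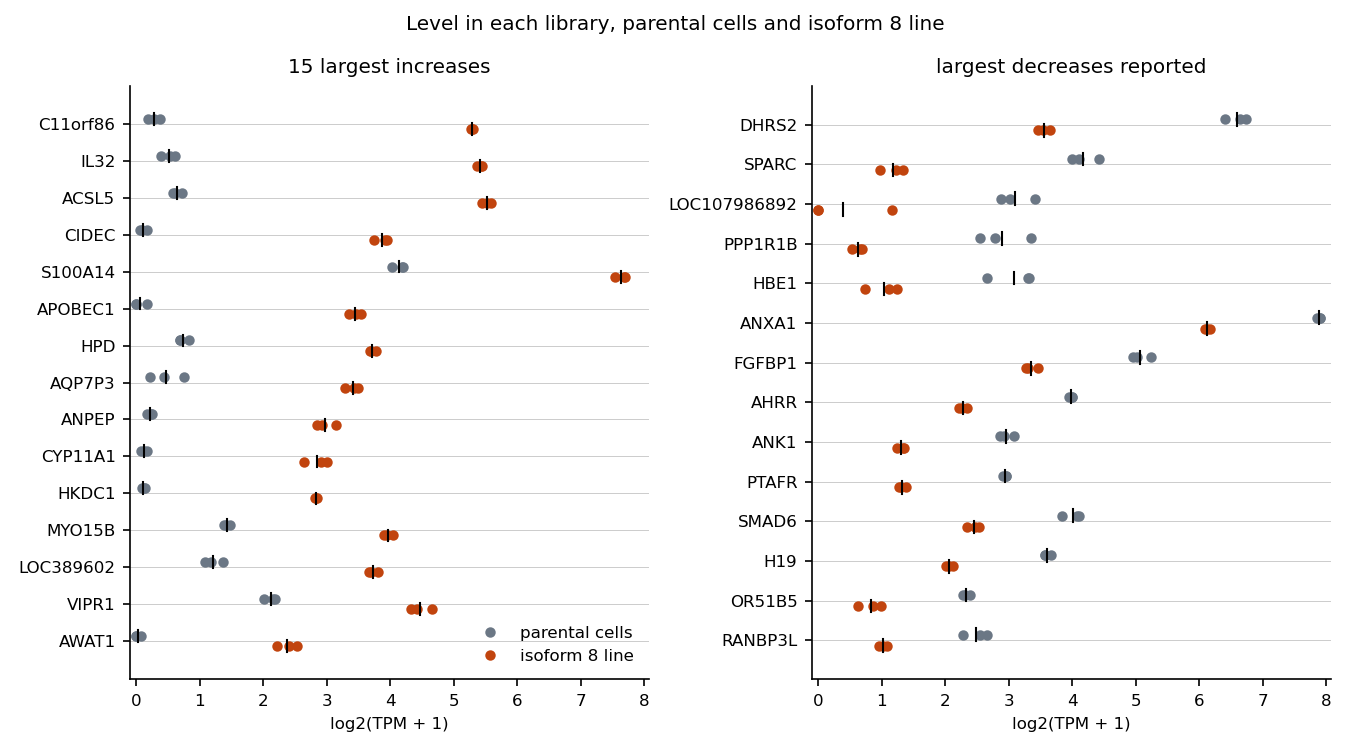
Level of the 15 genes with the largest increases (left) and those of the 15 with the largest decreases reported here (right) that kept their call without any 1 library, as log2(TPM + 1). Each dot is 1 library, grey for parental cells and red for the isoform 8 line, and the black mark is the mean of 3. The 2 groups are apart for every gene shown, and the genes were chosen for large differences with stable calls.

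Many structural genes of the absorptive surface were higher in the line. The brush border is the array of actin-cored microvilli on absorptive gut cells. Of 17 tested genes of this list 4 were called higher and 0 lower, 23.5% against 1.41% of all tested rows. At an adjusted p under 0.05 12 of the 17 were higher (70.6%) and 0 lower, beside 16.9% and 17.5% of all tested rows. The list's median log2 difference was 0.53, beside -0.0096 over all tested rows. ANPEP, the microvillar aminopeptidase N, went from 0.18, 0.119 and 0.173 TPM to 6.63, 6.18 and 7.80 TPM (2.76 ± 0.10). MYO15B, an unconventional myosin-like gene, went from 1.66, 1.59 and 1.78 TPM to 13.95, 15.5 and 14.45 TPM (2.54 ± 0.16). VIL1, which bundles and severs microvillar actin, was at 0.482, 0.683 and 0.497 TPM in parental libraries and at 3.97, 3.92 and 4.19 TPM in the line (1.70 ± 0.17). MISP, an actin-bundling protein of the microvillus base, went from 10.4, 10.1 and 11.1 TPM to 29.45, 29.9 and 30.7 TPM (1.43 ± 0.09). Members under the fold threshold with a low adjusted p were SLC9A3R1, a scaffold of apical membrane proteins, with means of 88.3 and 173 TPM, the actin nucleator COBL with means of 12.1 and 24.3 TPM, and EZR, which links membrane to actin, with means of 396 and 586 TPM. PLS1, ESPN, DPP4, MYO1D and BAIAP2L2 had adjusted p-values above the threshold.

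Junction genes leaned higher at a smaller size. Of 30 tested genes of tight junctions, adherens junctions and desmosomes, 1 was called (3.33%, beside 1.41% of all tested rows). At an adjusted p under 0.05 13 were higher (43.3%) and 0 lower, beside 16.9% and 17.5% of all tested rows, and the median was 0.19. With TPM rescaled without the mitochondrial rows the numbers were 12 higher and 2 lower (40% and 6.67%, beside 13.9% and 24.3% of all tested rows). CLDN2, a pore-forming claudin, was called, from 0.669, 0.581 and 0.643 TPM to 2.69, 2.14 and 2.36 TPM (1.05 ± 0.11), and its difference was 0.99 without replicate 1 of the line, just under the threshold. TJP3 had means of 14.1 and 23.9 TPM and PARD6B of 12.7 and 21.7 TPM. Of 5 tested genes from a list of liver and gut genes known as HNF4A targets, VIL1 and LGALS4 were called higher, and F10, coagulation factor X, had means of 9.25 and 5.37 TPM (log2 difference -0.69, adjusted p = 0.000311). LGALS4, a galectin of the gut, went from 0.18, 0.0739 and 0.158 TPM to 1.85, 1.85 and 2.005 TPM. The other 16 genes of that list, among them APOB and FABP1, were under the filter of 1 TPM over the 39 libraries, so the list is mostly untested here.

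Among 22 tested genes of lipid droplets and acyl-CoA metabolism the change lay in a few. ACSL5 and CIDEC, given above, and GPAT3 were called higher, and 0 were called lower (13.6%, beside 1.41% of all tested rows). GPAT3, an acyltransferase of triglyceride synthesis, was at 9.73, 11.6 and 8.95 TPM in parental libraries and at 20.8, 20.7 and 21.8 TPM in the line. Its log2 difference of 1.00 ± 0.06 sat at the threshold, and the call was lost without any of 3 libraries (parental replicates 1 and 3, line replicate 3) at differences of 0.92 to 0.98. AGPAT2, the next enzyme of that pathway, had means of 58.1 and 102 TPM. The main droplet coat gene PLIN2 was at 31.8 TPM ± 1.24 (SD, n = 3) and 31.4 TPM ± 1.01, a difference of -0.02 ± 0.06. ACSL3 and ACSL4, other acyl-CoA synthetases, had adjusted p-values above the threshold, with differences of 0.06 and 0.14. The list's median was 0.021, near that of all rows. At an adjusted p under 0.05 5 members were higher and 5 lower (22.7% each, beside 16.9% and 17.5% of all tested rows). With median-of-ratios scaling 8 were higher and 2 lower (36.4% and 9.09%, beside 22.9% and 14.5% of all tested rows). Without replicate 2 of the line 5 were higher and 2 lower (22.7% and 9.09%, beside 17.5% and 14.5%). Of 26 genes of fatty acid oxidation 0 were called. At an adjusted p under 0.05 11 were higher and 3 lower (42.3% and 11.5%, beside 16.9% and 17.5% of all tested rows). The thiolase ACAA2 had the largest difference there, with means of 56.0 and 104 TPM (0.87 ± 0.06), followed by ETFB, a subunit of the electron transfer flavoprotein, with 157 and 221 TPM.

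Enzymes of drug and steroid metabolism moved in both directions. Of 27 tested genes of phase I and phase II metabolism 4 were called higher and 1 lower, 18.5% against 1.41% of all rows. At an adjusted p under 0.05 8 were higher and 8 lower (29.6% each, beside 16.9% and 17.5% of all tested rows). CYP1A1, a dioxin-inducible monooxygenase, went from 2.34, 2.69 and 2.01 TPM to 15.2, 14.3 and 15.2 TPM (2.25 ± 0.15). CYP1A2, its neighbour on chromosome 15, was not in this list. It went from 0.66, 0.709 and 0.528 TPM to 2.75, 2.53 and 2.59 TPM (1.15 ± 0.10). AHRR, also outside the list, is the repressor of the receptor that induces both. It went the other way, from 14.46, 14.98 and 14.87 TPM to 3.78, 3.64 and 4.08 TPM (-1.71 ± 0.07). CYP1B1, another target of that receptor, had means of 6.10 and 3.04 TPM (-0.81). SULT2B1, a sulfotransferase of cholesterol and other hydroxysteroids, went from 5.00, 6.22 and 5.37 TPM to 19.4, 17.15 and 18.2 TPM (1.56 ± 0.15), and MGST2, a microsomal glutathione transferase, had means of 19.9 and 42.9 TPM (1.07 ± 0.15). The called gene that fell was DHRS2, described with the decreases. Outside this list, 2 enzymes of steroid synthesis rose: CYP11A1, which cleaves the cholesterol side chain, from 0.0852, 0.0495 and 0.124 TPM to 5.27, 6.51 and 7.00 TPM (2.73 ± 0.10), and CYP17A1 from 0.113, 0.191 and 0.188 TPM to 3.14, 2.91 and 3.60 TPM (1.85 ± 0.17). CYP17A1 was singled out after its values were seen.

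S100A genes, a cluster of small calcium-binding proteins on chromosome 1, were singled out after their values were seen. Of 11 tested members 6 were called higher, 0 lower and 5 were not called, 6 of 11 against 0.933% of all tested rows called higher. S100A14, which lies at 153614255 to 153616986, was at 15.3, 17.3 and 17.2 TPM in parental libraries and at 206.2, 184.9 and 203.3 TPM in the line (3.50 ± 0.11). S100A6, the most abundant called gene that kept its call without any 1 library, went from 1313, 1297 and 1348 TPM to 3415, 3199 and 3300 TPM (1.32 ± 0.05). S100A3 went from a mean of 8.22 to 36.8 TPM, S100A13 from 114 to 294 TPM, S100A5 from 1.88 to 6.55 TPM and S100A10 from 13.98 to 29.5 TPM. The cluster did not move as 1 block: S100A2 and S100A16, which lie between S100A3 and S100A14, had means of 47.7 and 48.0 TPM and of 63.1 and 66.9 TPM, and S100A11 had a difference of -0.24. Annexins, which partner with several S100 proteins, were split, with 1 of 9 called higher and 1 lower, beside 0.933% and 0.473% of all tested rows. ANXA1 fell from 231.7, 237.3 and 237.2 TPM to 71.3, 66.9 and 68.3 TPM (-1.76 ± 0.08), ANXA3 rose from a mean of 58.2 to 132 TPM (1.17 ± 0.08), and the other 7 of 9 tested annexins were not called, with ANXA2, the partner of S100A10, at 731 and 1083 TPM (0.565 ± 0.05).

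**Figure D3:**
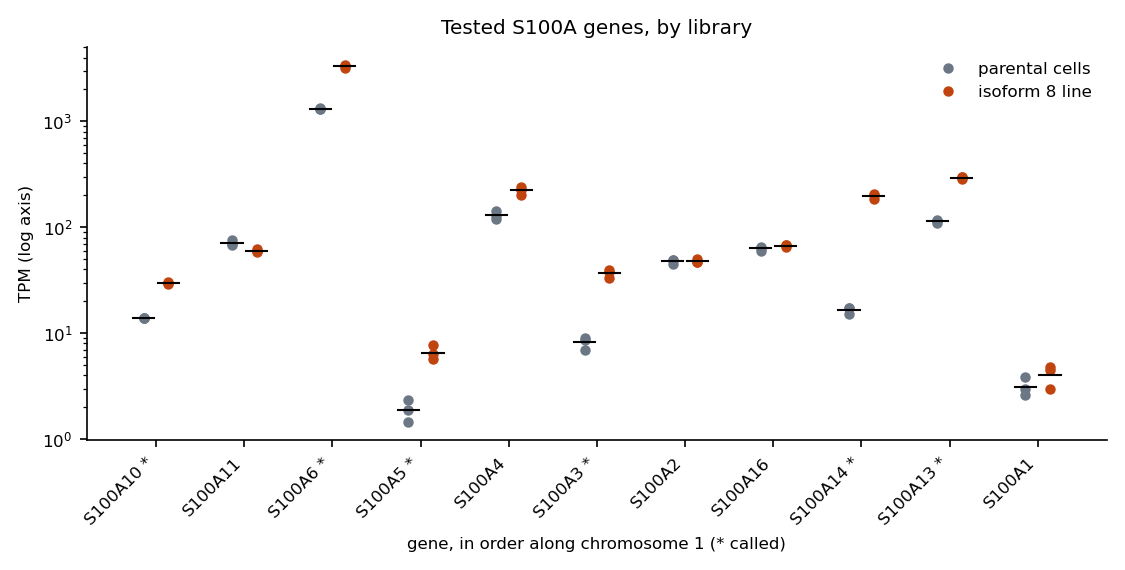
Level of the 11 tested S100A genes in each library, in TPM on a log axis, in their order along chromosome 1. Grey dots are the 3 parental libraries, red dots the 3 of the isoform 8 line, and the black mark is the mean. Called genes carry an asterisk, and uncalled S100A2 and S100A16 lie between called neighbours.

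Genes of glucose use, transport and signalling followed. Of 28 tested genes of glycolysis and gluconeogenesis HKDC1 and PC were called higher and 0 lower (7.14%, beside 1.41% of all tested rows). At an adjusted p under 0.05 12 were higher and 6 lower (42.9% and 21.4%, beside 16.9% and 17.5% of all tested rows). PC, pyruvate carboxylase, went from 7.085, 7.03 and 7.64 TPM to 23.0, 22.7 and 23.6 TPM (1.55 ± 0.06). ENO2 was the member with the most negative difference, with means of 27.4 and 16.4 TPM. ABCG2, an apical efflux pump, went from 2.10, 2.19 and 1.85 TPM to 13.3, 11.4 and 12.7 TPM (2.14 ± 0.11). It was the 1 called gene of 18 tested transporters of gut epithelium (5.56%). Of these 18, 7 were higher and 4 lower at an adjusted p under 0.05 (38.9% and 22.2%). VIPR1, a receptor for vasoactive intestinal peptide, went from 3.46, 3.01 and 3.52 TPM to 19.0, 24.1 and 20.5 TPM (2.35 ± 0.16). In the list of semaphorins and calmodulin kinases 3 of 16 were called, all higher, against 0.933% of all tested rows called higher. At an adjusted p under 0.05 3 were higher and 4 lower (18.8% and 25%, beside 16.9% and 17.5% of all tested rows), with a median of -0.067. The called members were SEMA3B, with means of 4.69 and 27.7 TPM, SEMA3C, also a secreted guidance protein, with 6.40 and 17.4 TPM, and CAMK2N1, an inhibitor of calmodulin kinase II, with 9.22 and 28.9 TPM. SEMA3F, of the same family, had means of 13.9 and 7.61 TPM (-0.80, not called). Among 30 tested genes of EGF and FGF signalling the ligand genes EREG and AREG, neighbours on chromosome 4, rose from means of 6.78 to 20.1 TPM and of 24.9 to 64.1 TPM. The carrier of fibroblast growth factors FGFBP1 fell, from 31.5, 36.9 and 30.0 TPM to 9.95, 8.89 and 8.67 TPM (-1.73 ± 0.22). At an adjusted p under 0.05 that list had 4 members higher and 13 lower (13.3% and 43.3%, beside 16.9% and 17.5% of all tested rows). Among the lower were DUSP6 (88.9 and 44.6 TPM) and SPRY4 (50.8 and 30.0 TPM), which dampen the pathway, and the ETS factors ETV4 and ETV5.

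Transcription factors of gut and liver moved in both directions. Of 24 tested 1 was called higher and 1 lower (8.33%, beside 1.41% of all tested rows). At an adjusted p under 0.05 9 were higher and 7 lower (37.5% and 29.2%, beside 16.9% and 17.5% of all tested rows). CREB3L3, a membrane-bound factor of liver and small intestine, went from 0.251, 0.182 and 0.198 TPM to 4.40, 3.66 and 4.17 TPM (2.07 ± 0.16). SOX4, a factor of progenitor cells, went from 209.5, 206 and 203.3 TPM to 88.8, 77.9 and 87.5 TPM (-1.27 ± 0.08). CDX2 had means of 15.35 and 12.96 TPM and HNF4G, the paralogue of HNF4A, of 3.61 and 3.74 TPM.

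Among genes that kept their call without any 1 library, the deepest decreases were in DHRS2 and SPARC. DHRS2, a short-chain dehydrogenase (chromosome 14, 23630115 to 23645639), was at 83.9, 99.3 and 106.1 TPM in parental libraries and at 10.0, 11.5 and 10.6 TPM in the line, a log2 difference of -3.05 ± 0.41 with an adjusted p of 7.08e-07. SPARC, a matrix glycoprotein (chromosome 5, 151661096 to 151687165), was at 14.97, 16.25 and 20.4 TPM and at 1.34, 0.962 and 1.52 TPM, a difference of -3.00 ± 0.34. The noncoding RNA LOC107986892 was at 6.38, 7.10 and 9.64 TPM in the parental libraries, was listed at 0 in 2 libraries of the line and was at 1.23 TPM in the third (-2.72 ± 0.60). PPP1R1B, an inhibitor of protein phosphatase 1, was at 4.87, 5.88 and 9.15 TPM and at 0.58, 0.442 and 0.606 TPM (-2.27 ± 0.23). These genes were lowered to a small part of their parental level, and most other lines had them below that level too. Over the other 11 lines the median of the means was 9.98 TPM for DHRS2 and 0.944 TPM for SPARC. It was 3.37 TPM for LOC107986892 and 0.704 TPM for PPP1R1B. DHRS2 reached a mean of 200 TPM in isoform 5.

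The embryonic globin gene HBE1 and the olfactory receptor gene OR51B5 fell together, by 2.06 ± 0.18 and 1.51 ± 0.16 on the log2 scale. HBE1 was at 5.31, 8.92 and 8.81 TPM in parental libraries and at 0.667, 1.37 and 1.16 TPM in the line. Both lie on the minus strand of chromosome 11 and their annotated spans share the end 5505652, so their reads may not be told apart and the 2 values are uncertain as separate results. The adult globin HBB of the same locus had means of 34.8 and 37.5 TPM. Other decreases among the 15 largest were in PTAFR, the receptor for platelet-activating factor, ANK1, a link of membrane to spectrin, SMAD6, an inhibitor of BMP signals, the imprinted noncoding RNA H19, and RANBP3L, with differences between -1.47 and -1.65. SMAD6 was at 15.8, 13.3 and 16.2 TPM in parental libraries and at 4.53, 4.07 and 4.80 TPM in the line. H19 was at 11.7, 10.8 and 10.9 TPM and at 3.02, 3.15 and 3.35 TPM. IGF2, its reciprocal neighbour, was called too, with means of 10.3 and 4.22 TPM (-1.12 ± 0.09).

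The lists of interferon, Wnt and matrix genes had more members lower than higher, with few calls. Of 29 tested interferon-stimulated genes 1 was called higher and 2 lower (10.3%, beside 1.41% of all tested rows). At an adjusted p under 0.05 3 were higher and 12 lower, with a median of -0.27, where 16.9% of all tested rows were higher and 17.5% lower. The list's numbers were 1 and 17 with TPM rescaled without the mitochondrial rows, where 13.9% of all tested rows were higher and 24.3% lower. They were 5 and 12 with median-of-ratios scaling, where 22.9% and 14.5% of all tested rows were. OAS1, an antiviral oligoadenylate synthetase, was the exception, at 3.65, 4.24 and 4.13 TPM in parental libraries and at 18.6, 18.3 and 20.3 TPM in the line (2.00 ± 0.11). Its relatives OAS3 and OASL, with differences of -0.21 and -0.31, had adjusted p-values above the threshold. IFITM1 and IFI6, both induced by interferon, fell, IFI6 from 24.6, 28.6 and 29.3 TPM to 11.1, 10.1 and 12.1 TPM (-1.23 ± 0.12). In the list of NF-kB targets and chemokines IL32 was the 1 called gene of 14 (7.14%). At an adjusted p under 0.05 4 were higher and 6 lower (28.6% and 42.9%). BCL3, a regulator of NF-kB, had means of 15.2 and 24.8 TPM (0.67), and NFKB1 and SOD2 were also higher, while TNFAIP3, a feedback inhibitor of NF-kB, had means of 5.79 and 2.81 TPM (-0.84) and ICAM1 of 6.12 and 3.91 TPM. Of 19 tested Wnt targets NOTUM, an inhibitor of Wnt ligands, was called lower, from 16.2, 15.9 and 15.9 TPM to 6.82, 6.54 and 6.09 TPM, and 1 was higher and 10 lower at an adjusted p under 0.05. AXIN2, another inhibitor of the pathway, had means of 2.43 and 1.55 TPM, while MYC and CCND1 differed by 0.0069 and -0.0012. Of 28 tested mesenchymal and matrix genes SPARC and CAVIN2 were called lower and 0 higher, and 4 were higher and 14 lower at an adjusted p under 0.05.

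Many genes of DNA replication were slightly lower in the line. Of 44 tested genes of S phase 0 were called by the rule with its fold threshold, and at an adjusted p under 0.05 0 were higher and 27 lower, against 17.5% of all tested rows that were lower, with a median of -0.21. UNG, a uracil glycosylase, was at 196.4, 201.1 and 195.5 TPM in parental libraries and at 156.9, 145.7 and 152.9 TPM in the line. E2F1 had means of 29.8 and 20.1 TPM and MCM2 of 155 and 118 TPM. Of 45 genes of G2 and mitosis 0 were higher and 15 lower, with a median of -0.15, among them PLK1 with means of 154 and 126 TPM. The size of these counts moved with replicate 2 of the line and with the scaling. Without that library 18 genes of S phase and 6 of mitosis were lower (40.9% and 13.3%, beside 14.5% of all tested rows). With median-of-ratios scaling 19 and 9 were lower (43.2% and 20%, beside 14.5%), and 2 of mitosis were higher. With TPM rescaled without the mitochondrial rows 36 and 27 were lower (81.8% and 60%, beside 24.3%). Genes of cholesterol synthesis had the opposite sign, with 13 of 24 higher (54.2%, beside 16.9% of all tested rows) and 0 lower and a median of 0.15. With TPM rescaled without the mitochondrial rows 8 were higher and 2 lower (33.3% and 8.33%, beside 13.9% and 24.3%). The largest difference was that of NSDHL, 0.35, with means of 72.2 and 92.5 TPM. Of 28 tested p53 targets 3 were higher and 10 lower at an adjusted p under 0.05 (10.7% and 35.7%, beside 16.9% and 17.5% of all tested rows). CDKN1A, which blocks the cell cycle, had means of 104 and 136 TPM. Lists with 0 called genes and a median within 0.1 of 0 were antigen presentation, YAP and TEAD targets, ATF4 and serine synthesis, ER chaperones, metallothioneins, and fatty acid oxidation. Such a median can hide changes in both directions. At an adjusted p under 0.05 7 of 21 YAP and TEAD targets were higher and 5 lower, and 4 of 17 antigen presentation genes were higher and 6 lower. Of 14 coagulation genes 2 were higher and 5 lower at an adjusted p under 0.05 with 0 called, and of 11 mucins and surface glycoproteins 3 were higher and 5 lower with LGALS4 called.

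**Figure D4:**
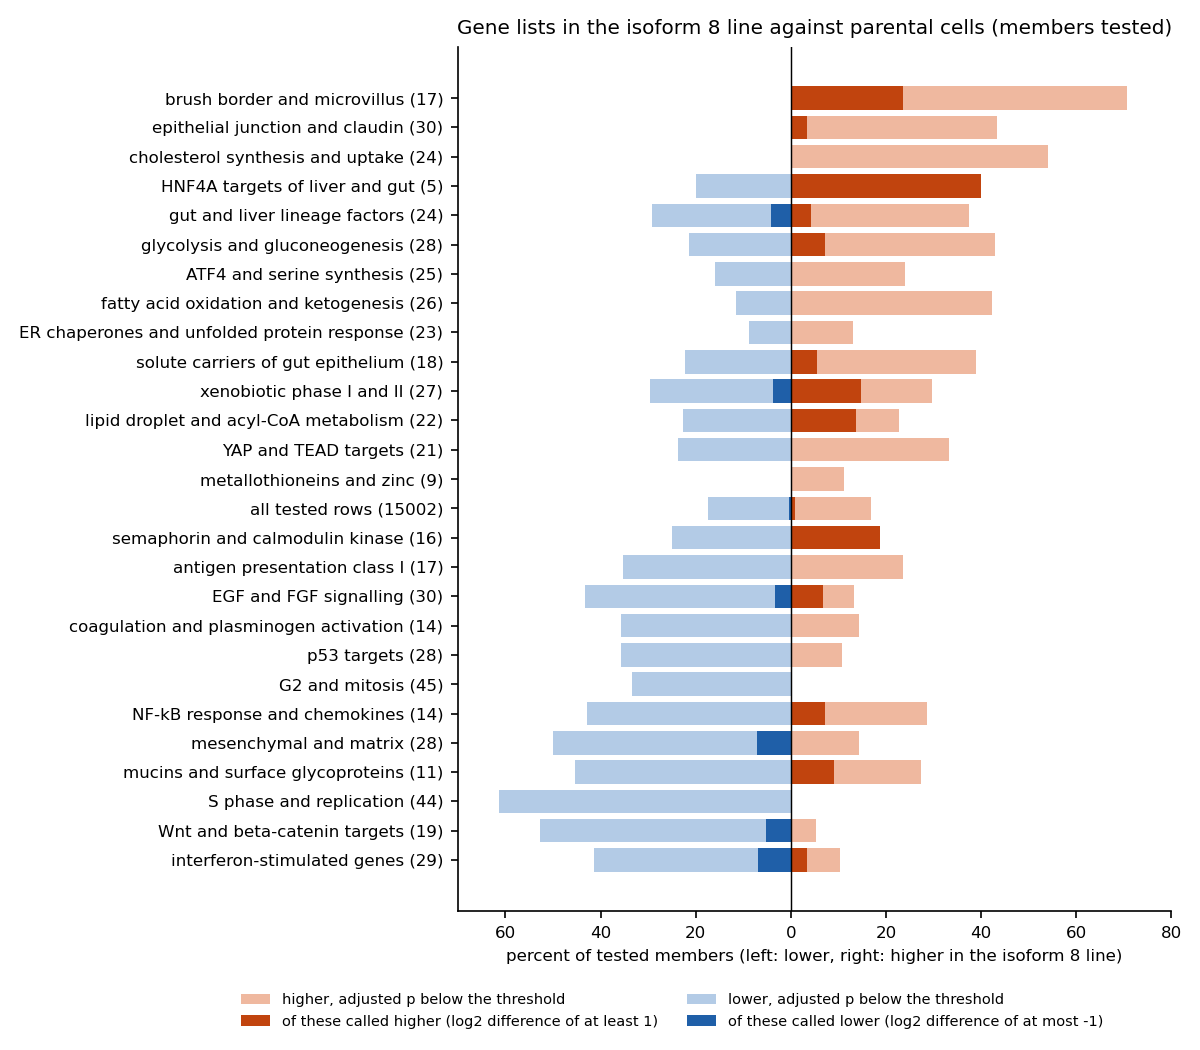
Share of tested members of each gene list that were higher (right, red) or lower (left, blue) in the isoform 8 line at an adjusted p under 0.05, in percent. The dark part of a bar is the share that also passed the fold threshold, the number in brackets is the number of members tested, and lists are ordered by their median log2 difference. Brush border genes stand at the top with 12 of 17 higher, and S phase genes have 27 of 44 lower.

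A large fall in 1 row went with the opposite change in another. RPL21P16, a processed pseudogene copy of the ribosomal protein gene RPL21, was at 1893, 1887 and 2243 TPM in parental libraries and at 1530, 121 and 0.0483 TPM in the line. Its log2 difference of -5.11 ± 1.91 was the largest negative value in the comparison (adjusted p = 0.0379), and the call was lost without any 1 of parental replicates 1, 2 and 3 or of line replicate 3, with a difference of -2.21 in the last case. RPL21 itself was at 821.4, 905.6 and 592.6 TPM and at 1575, 2756 and 3021 TPM. The 6 rows of RPL21 and its copies summed to 2767, 2860 and 2896 TPM in the parental libraries and to 3153, 2930 and 3070 TPM in the line. The rows are near-identical copies, so the split between them is uncertain. The mitochondrial ribosomal RNA row RNR2, also called lower, was at 5328, 4575 and 5094 TPM and at 1573, 3831 and 2118 TPM, and was highest in the line in replicate 2, the library with the highest mitochondrial share there. Its call was lost without replicate 1 of the line, at a difference of -0.81. The part of that share in the result was not tested.

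Some called genes lay close to each other. Of 185 called genes with a position in the GENCODE annotation of GRCh38, 37 (20%) had another called gene within 100000 bases, in 29 pairs, beside 631 of 13543 tested genes with a position (4.66%). Of the pairs 10 were of 2 S100A genes, and HBE1 and OR51B5, which may not be told apart, were another. ZNF117 and ERV3-1 had a gap of 0 bases, and the small nuclear RNA rows RNU1-3 and RNU1-4 had the same difference, 1.125. The 29 pairs are therefore not all separate results. In 28 of the 29 pairs both genes went the same way, and the exception was SNCG and FAM25A on chromosome 10. Beside the S100A genes these included PC, C11orf86 and SYT12 on chromosome 11, where C11orf86 starts 16901 bases from PC, and TRIM10 and TRIM15, ubiquitin ligases of the major histocompatibility region. TRIM15 was at 3.36, 2.88 and 3.38 TPM in parental libraries and at 15.2, 13.6 and 14.8 TPM in the line. The neighbours of other leading genes were near 0: the 10 tested genes around ACSL5 had a median difference of -0.019 and those around IL32 of -0.076, with none called.

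In the direct contrast with the line of isoform 7, which lacks the insertion, 34 genes were called, 26 higher (0.173%) and 8 lower (0.0533%) in isoform 8, 0.227% of tested rows together. Of the 30 genes with the largest differences from parental cells, 1 was called there: AQP7P3, with means of 9.61 TPM in isoform 8 and 21.3 TPM in isoform 7 (-1.07). Others of the 30 had an adjusted p under 0.05 with a difference below the fold threshold. Among them were HPD (-0.98), CIDEC (-0.81), S100A14 (-0.62) and, in the other direction, H19 (0.77). C11orf86 had means of 38.1 and 48.1 TPM in the isoform 8 and isoform 7 lines and a difference of -0.32, IL32 41.6 and 42.7 TPM and -0.03. These 2 had adjusted p-values above the threshold. An adjusted p above the threshold does not show that the lines act alike. PLIN2, which the naming rule did not select, was 1.66 higher in isoform 8 than in isoform 7, while it had not differed from parental cells in isoform 8. The contrast with isoform 11, which shares the insertion, gave 26 calls, 22 higher (0.147%) and 4 lower (0.0267%), 0.173% together. Among the 30 genes only VIPR1 was called, with means of 21.2 TPM in isoform 8 and 87.2 TPM in isoform 11 (-1.99). Genes with an adjusted p under 0.05 below the fold threshold included IL32 (-0.75), C11orf86 (-0.57) and, in the other direction, HPD (0.33).

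The contrast with isoform 2, the P1 form with the insertion, gave 231 calls, 73 higher (0.487%) and 158 lower (1.05%) in isoform 8, 1.54% together, and 15 of the 30 genes were among them. MYO15B was at 14.6 TPM in isoform 8 and at 87.2 TPM in isoform 2 (-2.50), CIDEC at 13.6 and 60.9 TPM (-2.08), APOBEC1 at 9.94 and 29.7 TPM (-1.49), C11orf86 at 38.1 and 93.5 TPM (-1.27) and IL32 at 41.6 and 85.6 TPM (-1.02). The 4 genes that were furthest below isoform 2 were not called against parental cells in isoform 8: ARL14EPL had means of 2.88 TPM in parental cells, 1.41 TPM in isoform 8 and 36.2 TPM in isoform 2, CIDEB of 2.28, 3.39 and 44.7 TPM, SDCBP2 of 0.39, 1.33 and 21.1 TPM, and FMN1 of 1.23, 1.29 and 19.5 TPM. In the other direction CYP11A1 was 2.75 higher and HPD 1.90 higher in isoform 8, with means of 6.26 and 0.0757 TPM and of 12.1 and 2.55 TPM. Of the genes that fell, ANXA1 was lower in isoform 8 than in isoform 2 (68.9 and 150 TPM), and DHRS2, SPARC and FGFBP1 were higher, by 1.03 to 1.30.

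Against the mean of the other 11 lines 34 genes were called, 18 higher (0.12%) and 16 lower (0.107%), 0.227% together. Most of the 16 lower were small nucleolar RNA, tRNA or pseudogene rows, such as SNORA1, SNORD34, TRNV and RNU6-216P, whose levels are uncertain. HBE1 and OR51B5, which may not be told apart, were also among them. LOC107986892 was another, and its call was lost without replicate 1 or replicate 2 of the line (limma adjusted p = 0.0706 and 0.0587). The 3 largest increases were in genes that the other lines mostly had below the parental level. RPGRIP1, a protein of the photoreceptor cilium, was at 3.45, 3.59 and 3.09 TPM in parental libraries, and isoform 8 had 10.1, 11.3 and 10.4 TPM. Its mean was 13.3 TPM in isoform 6 and between 0.374 and 0.757 TPM in the other 10 lines, and isoform 8 was 2.65 ± 0.10 above the mean of the other 11. FGF13, an intracellular member of its growth factor family, was at 2.35, 2.38 and 2.30 TPM in parental libraries, and isoform 8 had 7.99, 6.95 and 8.60 TPM. Its mean was 8.34 TPM in isoform 6 and between 0.11 and 1.23 TPM in the other 10 lines (2.32 ± 0.10). The antisense RNA TMEM132D-AS1 had means of 4.57 TPM in parental cells, 15.7 TPM in isoform 8 and 12 TPM in isoform 5, and at most 3.07 TPM in the remaining 10 lines (2.90 ± 0.24). VIM, the intermediate filament of mesenchymal cells, was at 13.8, 14.6 and 13.9 TPM in parental libraries, and isoform 8 had 18.5, 18.3 and 18.7 TPM (log2 difference 0.37, not called). It was at 30.6 TPM in isoform 6, 19.7 TPM in isoform 12 and 10.5 TPM in isoform 10, and at 8.15 TPM or less in the other 8 lines. RPL21P16, described above, had the largest negative difference from the other lines, -3.86 with an adjusted p of 0.0393, and its call was lost without replicate 2 or replicate 3 of the line (adjusted p = 0.0635 and 0.701).

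CYP11A1 was shared with few lines: its means were 6.31 TPM in isoform 7, 6.26 TPM in isoform 8, 5.46 TPM in isoform 11 and 5.09 TPM in isoform 10, whose libraries overlapped, and at most 0.237 TPM in the other 8 lines. HPD followed a like order, at 24.9 TPM in isoform 7, 12.1 TPM in isoform 8, 10.9 TPM in isoform 10 and 9.47 TPM in isoform 11, and between 0.642 and 4.75 TPM elsewhere. OAS1 was highest in isoform 8, at 19.1 TPM, ahead of isoform 11 at 16.5 TPM and isoform 7 at 14.1 TPM, against a mean of 0.527 TPM in isoform 4. Its difference from isoform 11, 0.20, had an adjusted p of 0.227 in limma, so that test does not set the order of these 2. ANXA1, AHRR and PTAFR had their lowest mean of all 12 lines in isoform 8, at 68.9, 3.83 and 1.49 TPM. The next means were 75.6 TPM in isoform 7, 4.08 TPM in isoform 1 and 1.68 TPM in isoform 7, and for each gene the libraries of these neighbours overlapped. C11orf86, IL32 and ACSL5 had rank 6 of the 12 lines in isoform 8, counted from the highest mean, with their highest means, 98.8, 139 and 105 TPM, in isoform 1.

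**Figure D5:**
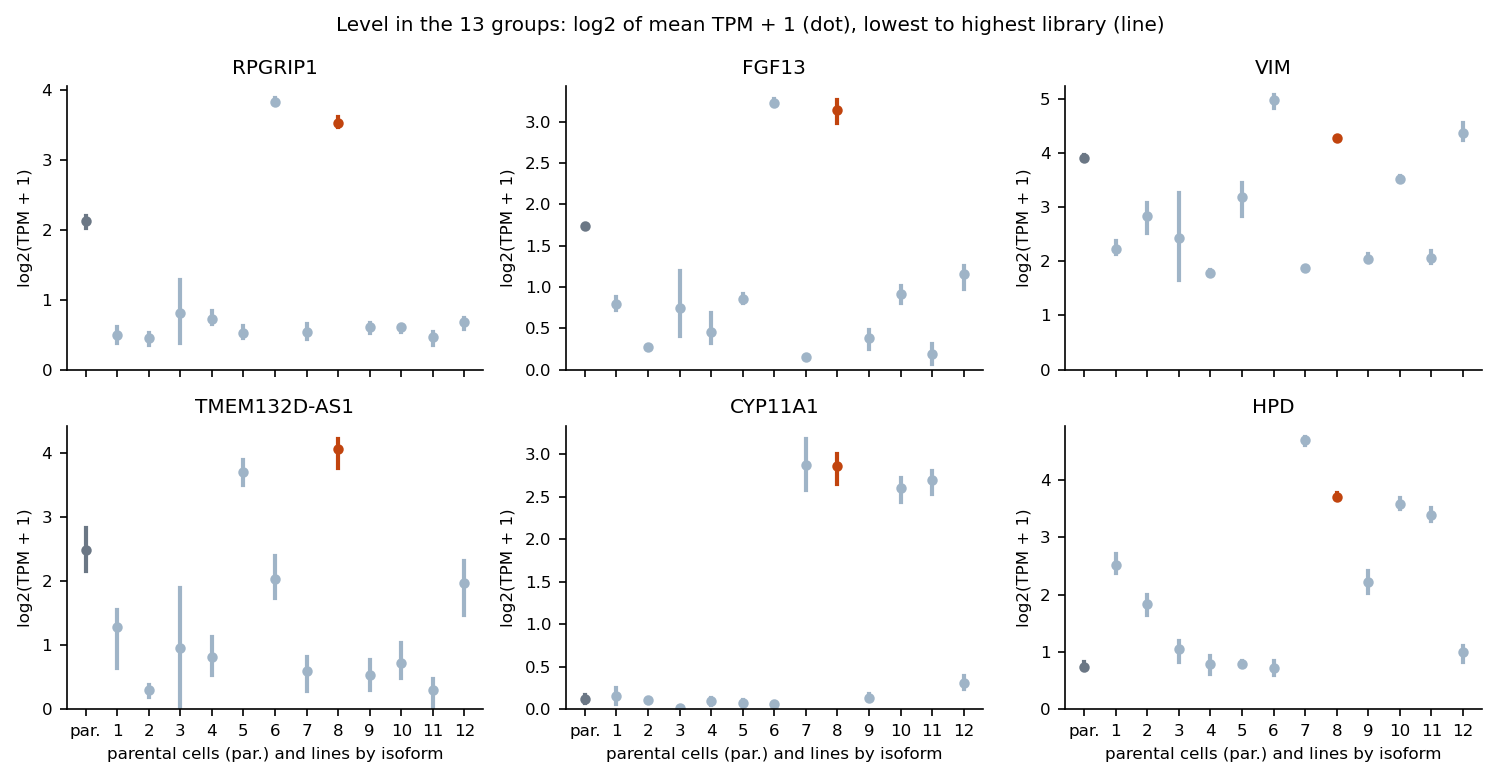
Level of 6 genes in the 13 groups as log2(TPM + 1): dots are the log2 of the mean of 3 libraries plus 1, and bars run from the lowest to the highest library. Grey is the parental cells, red the isoform 8 line and pale blue the other 11 lines. RPGRIP1 and FGF13 are high in isoforms 6 and 8, and CYP11A1 in isoforms 7, 8, 10 and 11.

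The authors' deposited table for the isoform 8 line held its own comparison with the parental cells. There were 254 genes in the authors' deposited table that passed the same thresholds, 151 higher and 103 lower. Of the 211 genes called here, 180 (85.3%) had an adjusted p under 0.05 and the same direction in the authors' deposited table, 164 passed both thresholds there, and 25 had no adjusted p in it.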

How the data were processed

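RNA-seq of 39 libraries (13 groups of 3) was used. Per the submitters' processing notes, the tools included Trimmomatic 0.36, FastQC 0.11.5, kallisto 0.44.0 and DESeq2 1.22.2 with GRCh38.p12. The authors deposited TPM per library, and the depth of each library is unknown. For the isoform 8 line the authors also deposited a comparison with a mean normalised signal, a log2 fold change, a test score and p-values. These were only set beside the results.

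The 12 HNF4A rows were left out and log2(TPM + 1) was tested for the 15002 of 45434 rows whose average across all 39 libraries reached 1 TPM. limma 3.58.1 in R 4.3.3 was fitted to all 13 groups (26 residual degrees of freedom, trended variance), with Benjamini-Hochberg adjustment over all tested rows, and was tested on simulated data. Replicate numbers did not pair the libraries. Positions came from a GENCODE annotation of GRCh38, biotypes and promoters from RefSeq.

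The groups, gene lists and tests were chosen with earlier results of these data known. Named were the 15 largest increases and 15 largest decreases that stayed called without any 1 of the 6 libraries, up to 4 called members of each list (or 2 with the smallest p), 4 genes in each direction per contrast with other lines, and called genes among the 10 largest that lost their call without 1 library. Genes named beyond this rule, such as uncalled list members, promoter matches, gene families and neighbours, were chosen after their values were seen. 1 of the 15 largest decreases is counted but not reported here by name.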

Additional observations from a re-analysis of the deposited data

Results flagged for a closer look

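Genes selected by the naming rule, and no others, were examined, and those listed are the ones where isoform 8 and another line differed by the limma test of that difference itself (adjusted p under 0.05 and an absolute log2 difference of at least 1). All values are log2 differences, isoform 8 minus the other line, and groups of 3 libraries were not tested for outlying samples.

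Against isoform 7 the higher genes were TMEM132D-AS1 (3.473), RPGRIP1 (3.005), FGF13 (2.99), VIM (2.415) and CAVIN2 (1.177). Lower were AQP7P3 (-1.074), FAM25A (-1.009) and the short RNAs SNORA24 (-1.37), SNORD34 (-2.082), RNU6-216P (-2.489) and RNU6-589P (-2.774), whose levels are uncertain in poly(A) libraries. All these short RNAs lost their call without replicate 3 of the isoform 8 line (limma adjusted p = 0.268, 0.225, 0.051 and 0.0822).

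Against isoform 2 the higher genes were TMEM132D-AS1 (3.754), RPGRIP1 (3.077), RNU6-431P (2.938), FGF13 (2.873), CYP11A1 (2.747), OAS1 (2.602), HPD (1.895), CAVIN2 (1.603), VIM (1.474), DHRS2 (1.298), SPARC (1.033) and FGFBP1 (1.032). Lower among the genes that rose against parental cells were C11orf86 (-1.271), IL32 (-1.021), CIDEC (-2.082), APOBEC1 (-1.488), AQP7P3 (-2.005), HKDC1 (-1.333), MYO15B (-2.497), LOC389602 (-1.27), CREB3L3 (-2.892), VIL1 (-2.766), LGALS4 (-2.093), SULT2B1 (-1.452), MISP (-1.345), SEMA3B (-1.311) and MGST2 (-1.033). Also lower were ANXA1 (-1.105), FMN1 (-3.162), SDCBP2 (-3.271), CIDEB (-3.383), ARL14EPL (-3.964) and the short RNAs RNU6-589P (-2.664), SNORD34 (-1.656) and SNORA103 (-1.431).

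Against isoform 11 the higher genes were TMEM132D-AS1 (3.767), RPGRIP1 (3.072), FGF13 (2.961), VIM (2.227), CAVIN2 (1.21) and the short RNA RNU6-611P (2.695). Lower were VIPR1 (-1.991), its antisense gene VIPR1-AS1 (-2.374), FAM25A (-1.126) and SNORA103 (-1.748). Several of these calls were not stable. Without replicate 1 of isoform 11 those of VIPR1-AS1, SNORA103 and RNU6-611P were lost (limma adjusted p = 0.0785, 0.0554 and 0.0895). FAM25A fell just under the fold threshold without replicate 2 of isoform 11, at -0.99.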

How the results depend on the processing

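With a pseudocount of 0.1 the calls numbered 365 against parental cells (164 lower), 106 against isoform 7, 387 against isoform 2, 60 against isoform 11 and 82 against the other 11 lines. With a filter of 5 TPM, which tests fewer genes, they numbered 126 (87 higher, 39 lower), 20, 140, 15 and 22. With no minimum difference they numbered 5153 (2528 higher, 2625 lower), 2168, 6636, 1796 and 4280. Leaving out 1 library at a time gave 192 to 238 calls against parental cells (120 to 143 higher, 69 to 97 lower), 33 to 49 against isoform 7, 225 to 237 against isoform 2, 18 to 32 against isoform 11 and 28 to 41 against the other lines. No filter, median-of-ratios scaling, a fit of only the 6 libraries and, chosen after seeing the data, protein-coding rows only and rescaling without mitochondrial mRNA rows gave 155 to 231 calls against parental cells. The last moved the share called higher from 66.4% to 57.6%. That share was 55.1% with a pseudocount of 0.1 and 59.2% without replicate 2 of the line. With the replicate number as a block, isoforms 4 and 5 left out, the calls were 213 (140 higher, 73 lower), 35, 235, 31 and 31. Deviations of same-numbered libraries correlated at -0.016, -0.0469 and 0.066. RPL21P16 lost its call with no filter (adjusted p = 0.0886) and in the fit of 6 libraries (0.124). No gene that the naming rule selected from the contrast with parental cells changed direction there in these settings. Other named genes were not run for that contrast. TPM holds no depth, so the counting error of low values is unknown.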

Other observations

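The genes below were chosen after their values were seen. All were called against parental cells and kept that call without any 1 of the 6 libraries. Their groups did not overlap, as in 48.4% of all tested rows. Among early response and signalling genes, the transcription factors JUN and ETS2 had means of 17.7 and 40.5 TPM and of 10.6 and 24.9 TPM in parental cells and the isoform 8 line. ZFP36, which destabilises mRNA, had means of 11.1 and 27.0 TPM, the kinase PIM1 of 11.7 and 36.0 TPM, and IRAK2, a kinase of interleukin-1 signalling, of 3.53 and 16.3 TPM. BAAT, which conjugates bile acids, rose from 0.349 to 3.15 TPM, the plasma protein VTN from 0.0288 to 3.02 TPM, and PIPOX, which breaks down pipecolic acid, from 0.431 to 4.36 TPM. DHRS3, a retinal reductase, rose from 13.7 to 73.0 TPM (2.35 ± 0.15, SE).

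Surface and complement genes moved in both directions. CD58, an adhesion ligand, rose from 6.35 to 29.7 TPM (2.06 ± 0.13), and CD24, a glycoprotein of epithelial progenitors, fell from 90.6 to 32.3 TPM (-1.46 ± 0.09). The complement protease C1R fell from 6.12 to 2.14 TPM, its inhibitor SERPING1 from 6.36 to 2.42 TPM, and IGFBP6, which binds insulin-like growth factors, from 28.2 to 11.0 TPM.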
